A study of Homo sapiens with 24 samples.

Results

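The genes described here are 34 enzymes and regulators of the tricarboxylic acid (TCA) cycle, of the entry of pyruvate into it and of anaplerosis, the reactions that refill it. They were taken from a fixed list of symbols, and all 34 were found among the 61860 human gene identifiers of the count tables. The list holds 7 genes for citrate and isocitrate, 6 for the steps from oxoglutarate to succinate, 7 for the steps from succinate to oxaloacetate, 8 for pyruvate entry and 6 for anaplerosis. RNA was sequenced in 4 experiments with OE33, a cell line from an esophageal adenocarcinoma (EAC), with 3 treated and 3 control libraries in each and 24 libraries in all.

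In the first experiment, OE33 xenografts from mice on a high-fat diet (HFD) were compared with xenografts from mice on a normal diet (ND). The hosts were male BALB/c-nu nude mice, bought at 4 weeks of age, which lack a thymus and so most T cells but keep other immune cells. They were fed for 8 weeks before the cells were injected under the skin, and the tumors were taken 21 days later with the diets continued. HFD mice were used if they weighed more than the ND mean plus 2 SD. In the second experiment, OE33 cells carried a plasmid for HA-tagged TRIM15, a member of a family of E3 ubiquitin ligases, or the empty vector (EV) for 48 h. In the third and the fourth, the cells carried a short hairpin RNA against YY2, a zinc finger transcription factor, or against FOXRED1, a factor for the assembly of respiratory complex I, for 72 h, and each knockdown had its own shControl. The sources used here do not say which hairpin was sequenced, or whether the 3 libraries of a cultured group came from separate cultures, so p-values measure the spread between libraries, which may be technical.

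Carbon enters the TCA cycle as acetyl-CoA, made from pyruvate by the pyruvate dehydrogenase complex in the mitochondrial matrix. Citrate synthase joins its acetyl group to oxaloacetate, and the cycle then yields NADH, FADH2 and GTP or ATP while it restores oxaloacetate. Kinases (PDK1 to PDK4) switch the pyruvate dehydrogenase complex off and phosphatases (PDP1, PDP2) switch it on, while pyruvate carboxylase (PC), the malic enzymes, glutamate dehydrogenase and the aspartate aminotransferases move carbon into or out of the cycle. Tumor cells use the cycle for energy and as a source of citrate and aspartate for lipids and nucleotides.

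The values are CPM, counts relative to a library's total, scaled with the trimmed mean of M values (TMM). Total counts lay between 14299807 and 45994561 per library. Each treated group was compared with its own control by edgeR's quasi-likelihood test, and a gene was called where the p-value, adjusted over all genes tested by the Benjamini-Hochberg method, was under 0.05. Fold changes are log2 of treated over control, and every adjusted p below is from this test unless another is named. All 34 genes passed the filter on low counts in each experiment. The labels of the cultured groups were checked with the targeted genes. Each EV library held 0 counts of TRIM15, where those with HA-TRIM15 held 111, 130 and 181. The HFD xenografts held 14, 12 and 24 counts of TRIM15 against 1, 0 and 0 in ND. No gene was targeted there, and the study picked TRIM15 for its rise in these libraries, so this is no check of the diet labels. YY2 was at 0.669, 0.72 and 0.595 CPM with shYY2 and at 2.36, 2.36 and 2.32 CPM in its control (log2 fold change -1.82, SE 0.215, adjusted p = 1.3e-06), and FOXRED1 at 10.1, 11.2 and 8.83 CPM with shFOXRED1 and at 17.7, 17.2 and 17.3 CPM in its control (log2 fold change -0.78, SE 0.115, adjusted p = 4.06e-05). The chi-square per gene between replicates is 1 for sampling noise alone. The third shFOXRED1 library stood furthest apart, with 7.10 and 6.22 to the other two, against 2.12 between those. Smaller gaps were found for the first HA-TRIM15 library (3.14 and 4.33, against 1.88 between the other two), the second ND library (3.83 and 4.49 against 2.20), the third shControl library of the YY2 experiment (2.68 and 2.94 against 1.42) and the third of the FOXRED1 experiment (3.39 and 3.07 against 2.11).

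Levels were compared between genes per kilobase of exon. GLUD1, glutamate dehydrogenase, had the highest mean, 109.9 CPM per kilobase over the 24 libraries, followed by the mitochondrial malate dehydrogenase MDH2 at 78.9, DLD at 68.7, GOT2 at 54.9 and FH at 53.7. The lowest were SDHA at 3.23, PDK2 at 2.91, ME2 at 2.76 and PDK1 at 2.30 CPM per kilobase. The kinases PDK1, PDK2 and PDK3 were thus expressed below the phosphatase PDP1, whose mean was 24.7 CPM per kilobase. The kinase PDK4, which is not on the list, was above PDP1 with ND (29.6 against 22.5) and shYY2 (69.6 against 40.5). It was below PDP1 with HFD (31.8 against 33.0), HA-TRIM15 (5.71 against 24.5), EV (3.65 against 21.3) and the YY2 shControl (9.16 against 24.4). The exon lengths were those of GENCODE 29, all isoforms joined, and the order of the genes depends on them. ME2 and PDK1 had lengths of 16243 and 14883 bases. In CPM not scaled by length their means, 44.9 and 34.2, were above those of SDHA (27.1) and PDK2 (16.0). Tables were normalized separately, so levels set across experiments are approximate. Ratios within a library do not depend on that scaling, and they showed that the controls of the experiments were not alike. The log2 ratio of IDH1, the cytosolic isocitrate dehydrogenase, to the mitochondrial IDH2 averaged 1.97 in the shControl of the FOXRED1 experiment and 0.78 in that of the YY2 experiment.

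**Figure D1:**
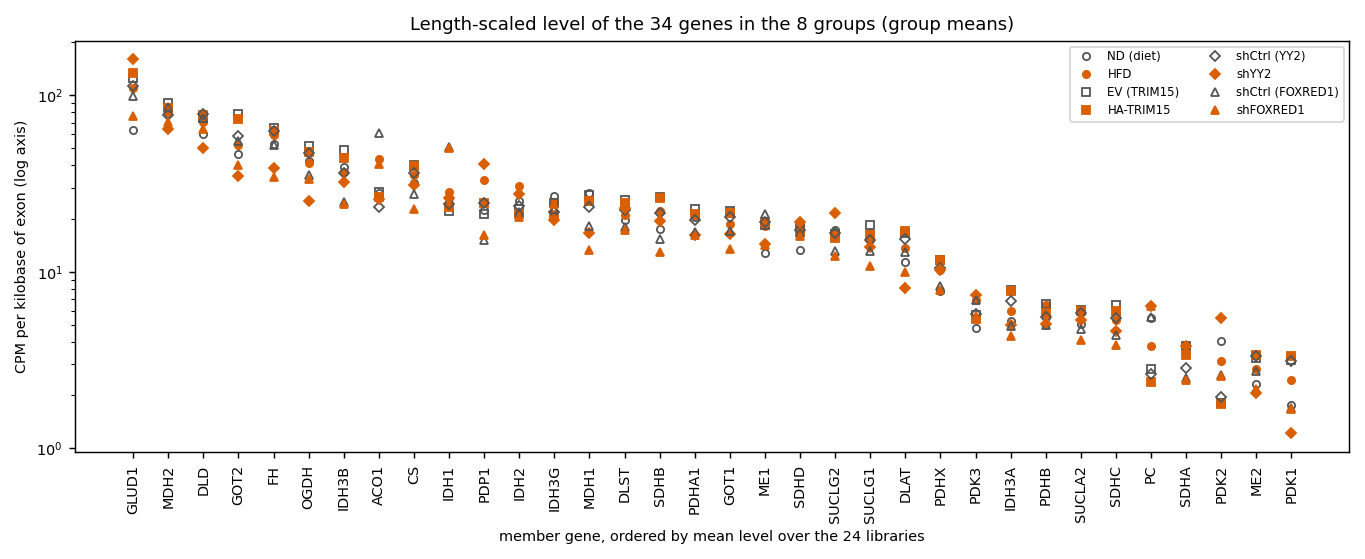
Mean level of each of the 34 genes in the 8 groups, in CPM per kilobase of exon on a log axis, with genes ordered by their mean over the 24 libraries. Open grey symbols are control groups and filled orange symbols are treated groups. GLUD1 stands highest at a mean of 109.9 and PDK1 lowest at 2.30, and single genes such as ACO1, PDP1 and PC spread widely between groups.

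The first comparison asked how a high-fat diet of the host changed these genes in the tumor cells. In HFD xenografts 21 of the 34 genes rose, 6 fell and 7 were not called. Of all 17012 genes tested, 25.6% rose and 23.9% fell. The median log2 fold change was 0.17 over the 34 genes and -0.012 over all genes tested. By role, 5 of 7 genes for citrate and isocitrate, 3 of 6 from oxoglutarate to succinate, 3 of 7 from succinate to oxaloacetate, 6 of 8 for pyruvate entry and 4 of 6 for anaplerosis rose. The summed level of the 34 genes was 3835 to 3918 CPM in the HFD xenografts and 3299 to 3366 CPM in the ND xenografts. In bulk RNA, fewer cells of a type and less RNA per cell cannot be told apart. Of the marker lists, 8 epithelial genes summed to 14261 to 14473 CPM with HFD and 12956 to 13274 CPM with ND, 8 fibroblast genes to 23.9 to 27.3 against 30.6 to 33.8 CPM, and 8 macrophage and leukocyte genes to 14.8 in each HFD library against 15.8 to 17.2 CPM. Endothelial, adipocyte and muscle genes each summed to under 0.7 CPM, with ADIPOQ, LEP and MYH1 at 0 in each of these libraries. The lists are human genes and the host cells are of the mouse, so how far these sums reflect host cells is not known. Cultured OE33 holds no host cells. In EV, the YY2 shControl and the FOXRED1 shControl the fibroblast list summed to 12.1 to 13.6, 10.9 to 12.2 and 24.3 to 25.5 CPM. The leukocyte list summed to 7.98 to 8.29, 14.4 to 15.6 and 24.5 to 26.5 CPM in this order. The part of the differences between HFD and ND in the results was not tested.

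Among the anaplerotic genes, GLUD1 (ENSG00000148672), which turns glutamate into oxoglutarate, changed most. It stood at 395, 379 and 382 CPM in the HFD xenografts and at 224, 215 and 234 CPM in the ND xenografts. The groups were far apart, with means of 386 ± 8.39 and 225 ± 9.46 CPM (SD, n = 3), a 1.72-fold rise (log2 fold change 0.78, SE 0.0377, adjusted p = 8.71e-11). The cytosolic malic enzyme ME1, a source of NADPH, was at 63.2, 60.6 and 60.5 CPM against 43.9, 42.1 and 43.8 CPM and rose 1.42-fold (means 61.4 ± 1.53 and 43.3 ± 0.987 CPM, log2 fold change 0.51, SE 0.0419, adjusted p = 4.51e-08). Its mitochondrial counterpart ME2 was at 45.7, 47.3 and 44.8 against 37.1, 36.3 and 39.8 CPM (means 45.9 ± 1.25 and 37.8 ± 1.83 CPM, log2 fold change 0.29, SE 0.0477, adjusted p = 0.00011), and the mitochondrial aminotransferase GOT2 at 202, 188 and 200.3 against 175, 178 and 175 CPM (means 197 ± 7.78 and 176 ± 1.64 CPM, log2 fold change 0.16, SE 0.0366, adjusted p = 0.00147). Every HFD library was above every ND library for these 4 genes. How many of all genes had groups separate in this way was not computed, here or in the other experiments. PC, which carboxylates pyruvate to oxaloacetate, went the other way and had the largest fall of the 34 genes. It was at 22.4, 23.6 and 21.9 CPM with HFD and at 31.6, 33.8 and 31.4 CPM with ND, with means of 22.6 ± 0.874 and 32.2 ± 1.33 CPM, and was 1.44-fold higher in ND xenografts (log2 fold change -0.52, SE 0.0546, adjusted p = 7.38e-07). The cytosolic aminotransferase GOT1 was at 67.8, 59.2 and 61.5 against 74.7, 75.2 and 67.6 CPM (means 62.8 ± 4.47 and 72.5 ± 4.24 CPM, log2 fold change -0.21, SE 0.0522, adjusted p = 0.00312), where the highest HFD library lay just above the lowest ND library.

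Of the genes for citrate and isocitrate, ACO1 (ENSG00000122729) rose most. ACO1 is the cytosolic aconitase, which also acts as an iron regulatory protein. Its values were 333, 324 and 326 CPM with HFD and 214, 206 and 209 CPM with ND, with SDs of 4.39 and 4.09 CPM, a 1.56-fold rise (means 328 ± 4.39 and 209.8 ± 4.09 CPM, log2 fold change 0.64, SE 0.0337, adjusted p = 2.15e-10). CS, citrate synthase, was at 227, 226 and 230.0 against 202, 201 and 206 CPM (means 228 ± 2.16 and 203 ± 2.68 CPM, log2 fold change 0.16, SE 0.033, adjusted p = 0.000606), a difference several times the spread within either group although small in size. IDH2 (log2 fold change 0.28), IDH3A (0.18) and IDH1 (0.12) also rose. Of the other subunits of the NAD-dependent isocitrate dehydrogenase, IDH3B was at 92.6, 94.9 and 93.9 against 97.8, 104 and 100.4 CPM and fell (means 93.8 ± 1.15 and 101 ± 3.25 CPM, log2 fold change -0.11, SE 0.0373, adjusted p = 0.0261), and IDH3G was not called at -0.13 (adjusted p = 0.0595). The calls of IDH1 and IDH3B were lost in 4 and 7 of the 11 alternative analyses, with adjusted p up to 0.172 and 0.16.

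From oxoglutarate to succinate the changes were smaller. DLD, the dihydrolipoamide dehydrogenase that both the pyruvate and the oxoglutarate complexes use, was at 380.4, 367 and 367 CPM with HFD and 322, 305 and 334 CPM with ND (means 372 ± 7.55 and 320.5 ± 14.8 CPM, log2 fold change 0.21, SE 0.0382, adjusted p = 0.000197). The succinyl-CoA ligase pairs 1 alpha subunit, SUCLG1, with a beta subunit for ATP, SUCLA2, or for GTP, SUCLG2. SUCLA2 rose (0.23, adjusted p = 0.000901), while SUCLG1 was at 65.5, 64.2 and 64.3 against 72.7, 67.9 and 72.2 CPM and fell (means 64.7 ± 0.697 and 70.9 ± 2.65 CPM, log2 fold change -0.13, SE 0.0405, adjusted p = 0.0143), and SUCLG2 was not called at -0.066. DLST rose by 0.11 and OGDH, the first enzyme of its complex, was not called at -0.031. Within complex II, which oxidizes succinate, the membrane anchor SDHD was at 54.6, 49.4 and 53.2 CPM against 38.3, 36.1 and 38.4 CPM (log2 fold change 0.49, SE 0.0486, adjusted p = 4.08e-07) and the iron-sulfur subunit SDHB at 55.5, 55.3 and 52.7 against 45.0, 40.7 and 42.8 CPM (means 54.5 ± 1.60 and 42.8 ± 2.13 CPM, log2 fold change 0.35, SE 0.0472, adjusted p = 1.24e-05). All 3 HFD libraries were above all 3 ND libraries in both. SDHA and SDHC were not called, at 0.045 and -0.10. SDHA, SDHC, SDHD and GLUD1 have near-identical copies elsewhere in the genome, so their counts depend on how shared reads were assigned. Fumarate hydratase (FH) was at 131, 128 and 127 against 111, 107 and 122 CPM (means 128 ± 1.94 and 113 ± 7.71 CPM, log2 fold change 0.18, SE 0.044, adjusted p = 0.00262). The cytosolic malate dehydrogenase MDH1 fell, from 145, 133 and 141 CPM with ND to 128, 127 and 124 CPM with HFD (means 126 ± 1.74 and 139.8 ± 5.78 CPM, log2 fold change -0.15, SE 0.0382, adjusted p = 0.00475), and MDH2 was not called at 0.025.

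At pyruvate entry, genes that switch the pyruvate dehydrogenase complex off and on rose together. The phosphatase PDP1 was at 184, 188 and 182 CPM with HFD and 122, 127 and 128 CPM with ND, a 1.47-fold rise (means 185 ± 2.96 and 126 ± 3.26 CPM, log2 fold change 0.55, SE 0.0353, adjusted p = 2.22e-09). The kinase PDK3 was at 35.7, 32.4 and 34.1 against 24.9, 22.7 and 24.0 CPM (means 34.1 ± 1.65 and 23.9 ± 1.12 CPM, log2 fold change 0.52, SE 0.0556, adjusted p = 8.54e-07) and the hypoxia-responsive kinase PDK1 at 36.4, 34.8 and 38.2 against 26.3, 25.3 and 26.4 CPM (means 36.5 ± 1.66 and 26.0 ± 0.619 CPM, log2 fold change 0.50, SE 0.0513, adjusted p = 6.02e-07). The third kinase, PDK2, was lower in each HFD library, at 16.2, 17.6 and 17.5 against 21.3, 22.7 and 22.3 CPM, a 1.29-fold difference (means 17.1 ± 0.771 and 22.1 ± 0.73 CPM, log2 fold change -0.37, SE 0.0614, adjusted p = 0.000105). Of the subunits of the complex, PDHX, which binds DLD to the core, rose by 0.39, the core acetyltransferase DLAT by 0.26 and PDHB by 0.24 on the log2 scale, and PDHA1 was not called at 0.036. DLAT stood at 65.4, 63.0 and 69.2 CPM with HFD and 58.2, 54.8 and 52.3 CPM with ND (SE 0.0477, adjusted p = 0.000251). With a log2 fold change of at least 0.26 in size asked for, 12 of the 34 genes rose and 2 fell, PC and PDK2. The share of all genes that pass this limit was not computed. The median size without sign was 0.21 over the 34 genes and 0.21 over all genes tested. Without the second ND library, which lay apart, the rise of IDH1 (adjusted p = 0.165) and the fall of IDH3B (adjusted p = 0.0889) were not called. SDHC was then called as a fall (log2 fold change -0.13, adjusted p = 0.0214), and no other of the 34 genes changed its call. Of all 17180 genes tested in that fit, 4244 rose and 3668 fell.

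**Figure D2:**
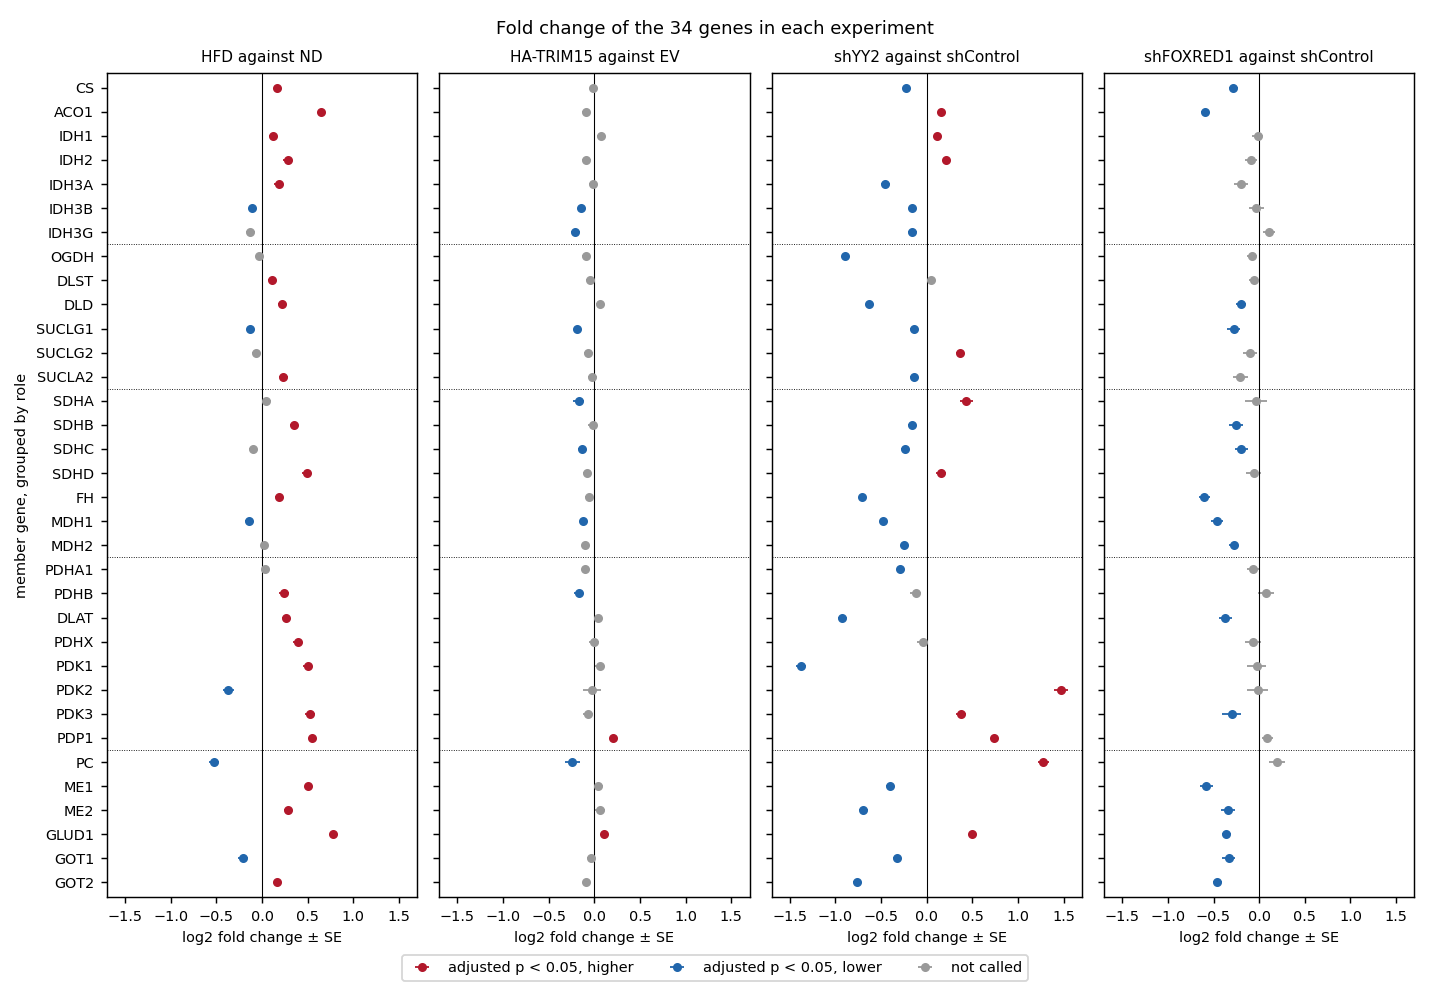
Log2 fold change of each of the 34 genes, with its SE, in the 4 experiments. Red and blue points passed an adjusted p of 0.05 in edgeR's test, grey points did not, and dotted lines divide the genes by role. HFD shows 21 red points, HA-TRIM15 few and small changes, shYY2 the widest spread in both directions, from -1.38 to 1.47, and shFOXRED1 16 blue points and no red ones.

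The second comparison asked what TRIM15 itself changed in cultured cells. With HA-TRIM15, 2 genes rose, 8 fell and 24 were not called, where 12.5% of the 15745 genes tested rose and 9.53% fell. The median log2 fold change was -0.065 over the 34 genes and -0.0065 over all genes tested, and no gene of the 34 reached a log2 fold change of 0.26 in size. Of the marker lists, 8 macrophage and leukocyte genes summed to 8.79 to 10.1 CPM with HA-TRIM15 and 7.98 to 8.29 CPM with EV, with 1 called higher. The 8 fibroblast genes summed to 11.6 to 12.3 against 12.1 to 13.6 CPM, with none called. The part of these lists in the result was not tested. PDP1 was at 135, 137 and 140.0 CPM with HA-TRIM15 and 119.9, 119.9 and 119 CPM with EV (means 137 ± 2.68 and 119 ± 0.751 CPM, log2 fold change 0.20, SE 0.0338, adjusted p = 0.0008), and GLUD1 at 454, 477 and 483 against 430.4, 438 and 445 CPM (means 471 ± 15.1 and 438 ± 7.48 CPM, log2 fold change 0.11, SE 0.0318, adjusted p = 0.0273). These were the 2 genes that rose, and their groups did not overlap. Among those that fell, PC was at 14.3, 14.9 and 13.3 against 15.7, 16.0 and 18.4 CPM (means 14.2 ± 0.819 and 16.7 ± 1.46 CPM, log2 fold change -0.24, SE 0.0826, adjusted p = 0.0462), IDH3G at 60.3, 53.0 and 58.1 against 68.7, 64.8 and 65.4 CPM (means 57.1 ± 3.76 and 66.3 ± 2.08 CPM, log2 fold change -0.21, SE 0.049, adjusted p = 0.00687) and SUCLG1 at 67.9, 68.3 and 71.5 against 79.2, 79.3 and 77.6 CPM (means 69.2 ± 1.97 and 78.7 ± 0.949 CPM, log2 fold change -0.19, SE 0.0389, adjusted p = 0.00349). SDHA, the flavoprotein of complex II, was at 30.2, 28.5 and 26.2 against 31.9, 32.1 and 32.1 CPM (means 28.3 ± 2.03 and 32.0 ± 0.105 CPM, log2 fold change -0.17, SE 0.0576, adjusted p = 0.0425), PDHB, the beta subunit of pyruvate dehydrogenase, at 28.2, 26.9 and 27.4 against 31.9, 30.5 and 30.7 CPM (means 27.5 ± 0.624 and 31.0 ± 0.758 CPM, log2 fold change -0.17, SE 0.0522, adjusted p = 0.0286) and IDH3B at 118, 109 and 113 against 126, 124 and 127 CPM (means 113 ± 4.82 and 125 ± 1.25 CPM, log2 fold change -0.15, SE 0.0379, adjusted p = 0.0127). In each of these 6 genes all HA-TRIM15 libraries lay below all EV libraries. SDHC was at 79.6, 85.5 and 88.0 against 90.5, 94.8 and 91.4 CPM (means 84.4 ± 4.36 and 92.2 ± 2.29 CPM, log2 fold change -0.13, SE 0.043, adjusted p = 0.0403) and MDH1 at 127, 127 and 122 against 135, 137 and 138 CPM (means 126 ± 2.89 and 137 ± 1.74 CPM, log2 fold change -0.12, SE 0.0344, adjusted p = 0.0198).

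The calls with HA-TRIM15 depended on single libraries. PDP1, IDH3G and SUCLG1 kept their calls in all 11 alternative analyses, and the other 7 lost theirs in at least 2. Without the first, the second or the third EV library 3, 3 and 2 genes fell and 1 rose, and without the second HA-TRIM15 library 3 fell and 1 rose. Without the first HA-TRIM15 library, which stood apart, 5 rose and 12 fell, and without the third 1 rose and 7 fell. Calls over all genes moved as well. With all libraries 1973 genes rose and 1501 fell, and without the first HA-TRIM15 library 2594 and 2506. Without an EV library 1247 to 1321 rose and 787 to 891 fell. Without the second HA-TRIM15 library these were 1443 and 800, and without the third 1564 and 1020.

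The effect of the diet was compared with that of HA-TRIM15 in 1 model over the 12 libraries of both experiments. The diet effect exceeded the HA-TRIM15 effect in 23 of the 34 genes and was below it in 1, PDK2, while 10 were not called. Of the 17160 genes tested in this model, 21.5% were above and 13.6% below. The largest differences in log2 fold change were in ACO1 (0.77, SE 0.0496, adjusted p = 2.35e-10), GLUD1 (0.71, SE 0.0506, adjusted p = 1.15e-09), PDK3 (0.62, adjusted p = 4.03e-06) and SDHD (0.60, adjusted p = 5.26e-07). Of the 6 genes that fell with HFD, 4 also fell with HA-TRIM15, IDH3B, MDH1, PC and SUCLG1, and of all genes that fell with HFD 13.3% did. For MDH1 the difference between the effects in this model was 0.0071 (SE 0.0512, adjusted p = 0.935), although the separate effects were -0.15 and -0.12. For CS it was 0.21, with separate effects of 0.16 and -0.014. The model scaled the 12 libraries together, and its differences lay above those of the separate effects in these genes. Whether the scaling was the cause was not tested. The counts above and below rest on this scaling. PC was not called below (-0.24, adjusted p = 0.0542). Of the 21 genes that rose with HFD, 2 (9.52%) rose with HA-TRIM15 and 18 (85.7%) were not called there, against 24.1% and 67.5% of all genes that rose with HFD. PDHB rose with HFD and fell with HA-TRIM15, with a difference of 0.44 (SE 0.0723, adjusted p = 6.55e-05). The number of genes below ranged from 0 to 3 when single libraries were left out, and the number above from 22 to 24. PDK2 lost its call without the second ND, the first EV or the second HA-TRIM15 library.

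The third comparison asked which genes changed when YY2 was knocked down, and it gave the widest range. With shYY2, 11 genes rose, 20 fell and 3 were not called (PDHB, PDHX and DLST), against 36.8% of the 16006 genes tested that rose and 38.1% that fell. The median log2 fold change was -0.16 over the 34 genes and -0.0081 over all genes tested. The median size without sign was 0.34 over the 34 genes and 0.47 over all genes tested. The summed level was 3369 to 3435 CPM with shYY2 and 3681 to 3747 CPM with shControl. Falls were counted in 4 of 7 genes for citrate and isocitrate, 4 of 6 from oxoglutarate to succinate, 5 of 7 from succinate to oxaloacetate, 3 of 8 for pyruvate entry and 4 of 6 for anaplerosis. Of the marker lists, 8 fibroblast genes summed to 42.5 to 44.4 CPM with shYY2 and 10.9 to 12.2 CPM with shControl, with 1 of the 8 called and none at 0 in every library. The 8 epithelial genes summed to 16416 to 16931 against 12099 to 12879 CPM, with 4 called higher and 4 lower. The 8 macrophage and leukocyte genes summed to 9.92 to 10.7 against 14.4 to 15.6 CPM, with 1 called lower and CD3E at 0, and 5 adipocyte genes to 0.72 to 1.46 against 0.236 to 0.303 CPM, with 1 called higher and ADIPOQ at 0. The part of these lists in the result was not tested.

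The regulators of pyruvate dehydrogenase went in opposite directions. PDK1 (ENSG00000152256) was at 18.9, 18.8 and 16.5 CPM with shYY2 and 46.3, 46.6 and 47.2 CPM with shControl. It had the largest fall of the 34 genes, 2.59-fold, with means of 18.0 ± 1.34 and 46.7 ± 0.444 CPM (log2 fold change -1.38, SE 0.0571, adjusted p = 3.85e-12). PDK2 (ENSG00000005882) was at 29.8, 31.8 and 27.9 against 10.2, 11.6 and 10.4 CPM and had the largest rise, 2.78-fold, with means of 29.8 ± 1.97 and 10.7 ± 0.775 CPM (log2 fold change 1.47, SE 0.0752, adjusted p = 4.72e-11). PDK3 was at 36.1, 38.7 and 35.4 against 27.4, 28.8 and 28.9 CPM (means 36.8 ± 1.76 and 28.4 ± 0.845 CPM, log2 fold change 0.37, SE 0.0533, adjusted p = 1.1e-05). The phosphatase PDP1 was at 226, 232 and 224 against 129, 141 and 139.6 CPM, a 1.66-fold rise (means 227 ± 4.20 and 137 ± 6.32 CPM, log2 fold change 0.73, SE 0.0348, adjusted p = 1.96e-11). No shYY2 library overlapped a control library for these 4 genes. Of the subunits of the complex, DLAT was at 40.5, 37.5 and 39.1 against 71.8, 72.6 and 77.5 CPM and fell 1.90-fold (means 39.0 ± 1.46 and 74.0 ± 3.07 CPM, log2 fold change -0.92, SE 0.0451, adjusted p = 2.76e-11). PDHA1 fell by 0.30 on the log2 scale (adjusted p = 1.74e-06), and PDHB and PDHX were not called at -0.12 and -0.047.

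**Figure D3:**
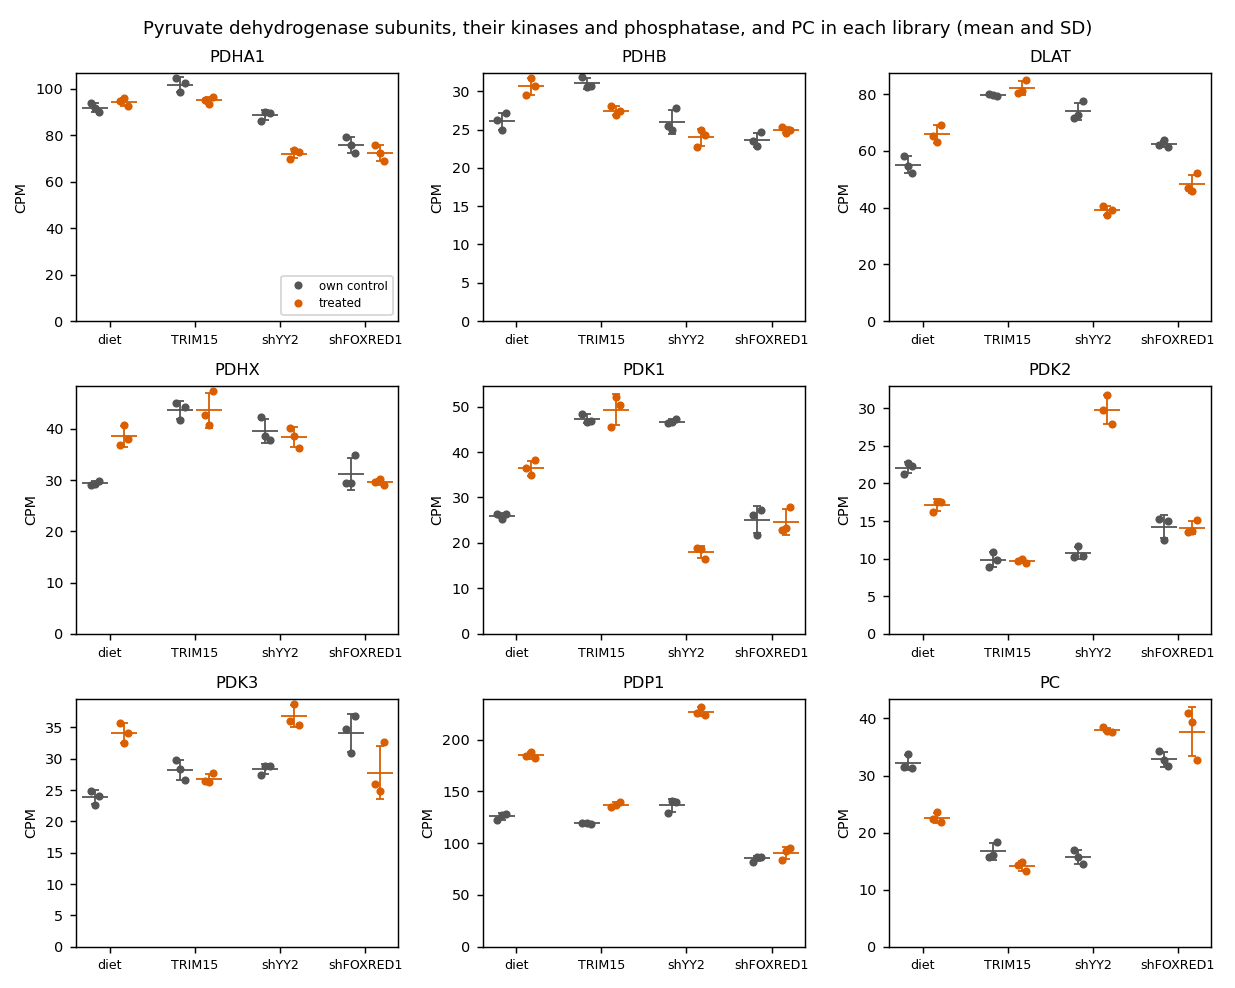
Level in CPM of the 4 pyruvate dehydrogenase subunits, the kinases PDK1 to PDK3, the phosphatase PDP1 and PC in each of the 24 libraries, by experiment. Grey points are control libraries and orange points treated libraries, with the group mean and SD as bars. With shYY2, PDK1 drops from 46.7 to 18.0 CPM while PDK2 climbs from 10.7 to 29.8 CPM and PC from 15.7 to 38.0 CPM, and with shFOXRED1 the 3 genes overlap their control.

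PC had the second largest rise with shYY2. It was at 38.5, 37.8 and 37.7 CPM against 17.0, 15.7 and 14.5 CPM, a 2.42-fold rise (means 38.0 ± 0.403 and 15.7 ± 1.25 CPM, log2 fold change 1.28, SE 0.0619, adjusted p = 2.53e-11). GLUD1 was at 550.5, 572 and 562 against 399.9, 399.5 and 394 CPM (means 561 ± 10.6 and 398 ± 3.51 CPM, log2 fold change 0.50, SE 0.0267, adjusted p = 8.88e-11). The other 4 anaplerotic genes fell. GOT2 was at 131, 133 and 129 against 226, 233 and 209 CPM (means 131 ± 1.73 and 223 ± 12.3 CPM, log2 fold change -0.77, SE 0.0381, adjusted p = 3.49e-11) and ME2 at 33.5, 35.4 and 31.3 against 53.7, 54.9 and 53.6 CPM (means 33.4 ± 2.09 and 54.1 ± 0.723 CPM, log2 fold change -0.70, SE 0.0493, adjusted p = 2.72e-09). ME1 was at 49.3, 47.0 and 49.3 against 64.4, 63.7 and 64.7 CPM (means 48.5 ± 1.31 and 64.3 ± 0.479 CPM, log2 fold change -0.40, SE 0.039, adjusted p = 1.18e-07) and GOT1 at 57.3, 53.6 and 54.3 against 71.6, 69.9 and 65.6 CPM (means 55.1 ± 1.94 and 69.0 ± 3.11 CPM, log2 fold change -0.32, SE 0.0436, adjusted p = 5.48e-06). The shYY2 and control libraries of all 6 anaplerotic genes were separate, in an experiment where 36.8% of all genes tested rose and 38.1% fell.

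Within the cycle, OGDH (ENSG00000105953), which carries out the oxidative decarboxylation of oxoglutarate, fell most. Its values were 132, 133 and 127 CPM with shYY2 and 249, 245 and 237 CPM with shControl, a 1.86-fold fall (means 131 ± 3.08 and 244 ± 6.35 CPM, log2 fold change -0.90, SE 0.0319, adjusted p = 6.1e-13). FH was at 80.9, 81.9 and 85.3 against 139, 129.8 and 136 CPM (means 82.7 ± 2.27 and 135 ± 4.83 CPM, log2 fold change -0.71, SE 0.0359, adjusted p = 4.49e-11) and DLD at 267, 270.2 and 265 against 418, 409 and 411 CPM (means 267 ± 2.76 and 413 ± 4.98 CPM, log2 fold change -0.63, SE 0.027, adjusted p = 5.79e-12), both with SDs of at most 4.98 CPM within a group. The third component of the oxoglutarate complex, DLST, was not called at 0.045 (adjusted p = 0.216). MDH1 was at 85.4, 80.3 and 84.0 against 115, 118 and 115 CPM (means 83.2 ± 2.66 and 116 ± 2.08 CPM, log2 fold change -0.48, SE 0.034, adjusted p = 2.97e-09), MDH2 fell by 0.25 on the log2 scale, and CS was at 196, 203 and 199 against 232, 236 and 231 CPM (means 199 ± 3.21 and 233 ± 2.35 CPM, log2 fold change -0.23, SE 0.0283, adjusted p = 2.56e-06). The genes that rose included SDHA, at 32.6, 28.9 and 34.5 against 22.3, 24.2 and 24.8 CPM (means 32.0 ± 2.88 and 23.7 ± 1.29 CPM, log2 fold change 0.43, SE 0.069, adjusted p = 3.46e-05), and SUCLG2, at 65.4, 66.6 and 66.4 against 50.3, 50.7 and 53.3 CPM (log2 fold change 0.36, SE 0.0391, adjusted p = 4.59e-07). SDHB and SDHC, partners of SDHA in complex II, were at 47.5, 47.6 and 47.7 against 53.0, 53.0 and 53.7 CPM (means 47.6 ± 0.0899 and 53.3 ± 0.389 CPM, log2 fold change -0.16, SE 0.0391, adjusted p = 0.00152) and at 66.4, 62.3 and 67.7 against 75.7, 76.7 and 79.6 CPM (means 65.5 ± 2.85 and 77.3 ± 2.01 CPM, log2 fold change -0.24, SE 0.04, adjusted p = 5.24e-05), and SDHD rose by 0.16. Both were thus lower in every shYY2 library. ACO1 was at 188, 202 and 192 against 178, 173 and 173 CPM (means 194 ± 7.50 and 175 ± 2.77 CPM, log2 fold change 0.15, SE 0.0328, adjusted p = 0.000639) and IDH3B at 83.9, 81.9 and 83.3 against 92.4, 93.6 and 92.9 CPM (means 83.0 ± 0.994 and 93.0 ± 0.607 CPM, log2 fold change -0.16, SE 0.0319, adjusted p = 0.000252). SUCLG1 was at 62.6, 58.3 and 57.2 against 66.9, 62.5 and 66.5 CPM (means 59.4 ± 2.82 and 65.3 ± 2.42 CPM, log2 fold change -0.14, SE 0.0438, adjusted p = 0.00935), where 1 shYY2 library lay just above the lowest control library. Asking for a log2 fold change of at least 0.26 in size left 7 genes that rose and 12 that fell. The share of all genes that pass this limit was not computed, and their median size was above it, at 0.47. Without the third control library 10 of the 34 genes rose and 20 fell. Of all 16438 genes tested in that fit, 5876 rose and 6103 fell.

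YY2 is known to share its core binding letters, AANATGGC, with YY1. The promoters of the genes were therefore searched for these letters on both strands, from 250 bases before to 50 bases after the start in RefSeq (GRCh38.p14), and 31 of the 34 genes had such a promoter. OGDH, SDHC and PDP1 had none. The letters occurred in 6 of the 31 promoters (19.4%) and in 7.97% of the promoters of all 27305 gene symbols. The latter were not limited to genes expressed here, so the 2 shares are not of like sets. They occurred in 3 of the 18 genes with a promoter that fell with shYY2 and in 1 of the 10 that rose. The 30-base stretches with a match are shown on the strand of the gene with the matching letters in capitals, since in 5 of the 6 genes a match lay shortly after the start, at bases 11 to 36.
SDHB: cgtcaggagccAAGATGGCggcggtggtcg
PDHB: aggacacgaccAAGATGGCggcggtgtctg
SUCLG2: gtttcctgtttAAGATGGCgtcccccgtag
IDH3B: ttcctgcgggaAACATGGCggcattgagcg
PDHX: agtgagaaggccgtcAAGATGGCggcctcc
IDH3B, upstream: gacgtagattaAATATGGCgactgaaaaca
IDH3G, upstream: gtccccccctcAACATGGCggcagcggtgc
On GRCh38.p14, these stretches lie at chr1:17054004-17054033 (minus strand, first capital letter at base 11) for SDHB, chr3:58433794-58433823 (minus strand, first capital letter at base 21) for PDHB and chr3:67654571-67654600 (minus strand, first capital letter at base 24) for SUCLG2. Those of IDH3B are at chr20:2664173-2664202 (minus strand, first capital letter at base 26) and chr20:2664379-2664408 (minus strand, first capital letter at base -181), that of PDHX is at chr11:34916638-34916667 (plus strand, first capital letter at base 36) and that of IDH3G at chrX:153794476-153794505 (minus strand, first capital letter at base -119), counted from 1 at the start. The letters hold ATGG, which also occurs where translation starts, and whether these matches are start codons was not tested. The matches after the start lie in genes that fell (SDHB, IDH3B), rose (SUCLG2) or were not called (PDHB, PDHX) with shYY2. The genes with the largest changes, PDK1, PDK2, PC and DLAT, held no match in this window. Letters of other factors were searched in the same way. CCGGAAG, bound by ETS factors, occurred in 7 of the 31 promoters (22.6%, against 12.2% of all), the palindromic motif of NRF1 in 1 (3.23% against 1.52%) and the E-box CACGTG in 2 (6.45% against 8.77%). A match is a string of letters and not a bound site.

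The fourth comparison asked which genes changed when FOXRED1 was knocked down. With shFOXRED1, 16 genes fell, 0 rose and 18 were not called, against 19.7% of the 15730 genes tested that fell and 16.8% that rose. At an unadjusted p under 0.05 in edgeR's test 18 fell and 1 rose, and DESeq2's Wald test called 16 and 0. The median log2 fold change was -0.20 over the 34 genes and 0.012 over all genes tested. The 8 fibroblast genes summed to 38.5 to 41.8 CPM with shFOXRED1 and 24.3 to 25.5 CPM with shControl, with 1 called and COL1A2, DCN and THY1 at 0 in every library. The 8 macrophage and leukocyte genes summed to 20.9 to 24.0 against 24.5 to 26.5 CPM, with none called. Of the 8 epithelial genes 2 were called higher and 3 lower, and their sums overlapped (14260 to 16546 against 14998 to 15720 CPM). The part of these lists in the result was not tested. The summed level was 3056 to 3139 CPM with shFOXRED1 and 3663 to 3745 CPM with shControl. Falls were counted in 5 of 6 anaplerotic genes, 5 of 7 from succinate to oxaloacetate, 2 of 7 for citrate and isocitrate, 2 of 6 from oxoglutarate to succinate and 2 of 8 for pyruvate entry. With the replicate number as a block, which may pair these libraries, 18 genes fell and 1, PC, rose. Without the third shFOXRED1 library, which stood apart, 18 fell and 1 rose as well, and without the third control library 12 fell and 0 rose. Of all genes, 3102 fell and 2650 rose in the main test, and 3636 and 3157 with the block. Without the third shFOXRED1 library 3638 fell and 3215 rose, and without the third control library 2579 and 2084.

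The largest fall was that of FH (ENSG00000091483), which hydrates fumarate to malate. It was at 73.5, 71.0 and 77.5 CPM with shFOXRED1 and 108, 113 and 116 CPM with shControl, a 1.52-fold fall with means of 74.0 ± 3.28 and 112 ± 3.91 CPM (log2 fold change -0.60, SE 0.0611, adjusted p = 7.06e-07). ACO1 was at 301, 304 and 314 against 459, 454 and 472 CPM, a 1.51-fold fall (means 306 ± 6.63 and 462 ± 9.48 CPM, log2 fold change -0.59, SE 0.0469, adjusted p = 3.78e-08). MDH1 was at 61.5, 68.8 and 67.7 against 88.4, 90.1 and 93.9 CPM (means 66.0 ± 3.95 and 90.8 ± 2.82 CPM, log2 fold change -0.46, SE 0.0648, adjusted p = 2.77e-05). For the 3 genes each knockdown library lay well below each control library. The other genes of the last steps of the cycle that fell were MDH2 (log2 fold change -0.28), SDHB and SDHC. SDHB was at 30.3, 31.5 and 33.2 against 38.7, 36.0 and 38.5 CPM (means 31.7 ± 1.43 and 37.7 ± 1.52 CPM, log2 fold change -0.25, SE 0.0765, adjusted p = 0.0146) and SDHC at 58.2, 53.0 and 52.3 against 63.8, 61.0 and 62.5 CPM (means 54.5 ± 3.22 and 62.4 ± 1.39 CPM, log2 fold change -0.20, SE 0.0675, adjusted p = 0.0309). CS was at 141, 146 and 149 against 182, 177 and 171 CPM (means 145 ± 4.28 and 177 ± 5.16 CPM, log2 fold change -0.28, SE 0.0539, adjusted p = 0.000527) and SUCLG1 at 49.1, 45.2 and 44.9 against 54.8, 56.3 and 58.3 CPM (means 46.4 ± 2.35 and 56.5 ± 1.74 CPM, log2 fold change -0.28, SE 0.0688, adjusted p = 0.00382). These 4 falls were smaller, between 0.20 and 0.28 on the log2 scale, with separate groups. DLD was at 323, 338 and 369 against 379, 392 and 411 CPM (means 343 ± 23.5 and 394 ± 16.1 CPM, log2 fold change -0.20, SE 0.0555, adjusted p = 0.00948). SDHB, SDHC and DLD lost their calls when single libraries were left out, with adjusted p up to 0.123.

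Among the anaplerotic genes, ME1 was at 47.4, 47.0 and 49.7 CPM with shFOXRED1 and 67.8, 67.0 and 80.1 CPM with shControl, a 1.49-fold fall (means 48.01 ± 1.45 and 71.6 ± 7.30 CPM, log2 fold change -0.58, SE 0.0758, adjusted p = 1.31e-05). GOT2 was at 151, 152 and 152 against 210.0, 206 and 208 CPM, with SDs of 0.777 and 1.84 CPM (means 152 ± 0.777 and 208 ± 1.84 CPM, log2 fold change -0.46, SE 0.0506, adjusted p = 1.86e-06). The falls in the malic enzymes and aminotransferases thus included both the cytosolic and the mitochondrial forms. ME2 was at 34.8, 34.1 and 37.1 against 41.6, 48.4 and 44.2 CPM (means 35.3 ± 1.57 and 44.7 ± 3.40 CPM, log2 fold change -0.34, SE 0.0777, adjusted p = 0.00223) and GOT1 at 47.98, 45.7 and 42.1 against 57.3, 57.6 and 56.4 CPM (means 45.2 ± 2.98 and 57.1 ± 0.626 CPM, log2 fold change -0.33, SE 0.0699, adjusted p = 0.00114). GLUD1, which rose in the other 3 experiments, was at 262, 270.1 and 277 against 349.9, 336 and 353 CPM (means 269.7 ± 8.00 and 346 ± 8.90 CPM, log2 fold change -0.36, SE 0.0492, adjusted p = 1.91e-05). PC was not called, at 40.9, 39.4 and 32.8 against 34.2, 32.7 and 31.6 CPM (log2 fold change 0.20, SE 0.0875, adjusted p = 0.0843), and the third knockdown library lay among the controls. At pyruvate entry DLAT was at 47.0, 46.0 and 52.1 against 62.1, 63.8 and 61.4 CPM (means 48.4 ± 3.30 and 62.4 ± 1.21 CPM, log2 fold change -0.37, SE 0.0694, adjusted p = 0.000439) and PDK3 at 26.0, 24.8 and 32.6 against 34.7, 30.9 and 36.8 CPM (means 27.8 ± 4.22 and 34.1 ± 3.00 CPM, log2 fold change -0.30, SE 0.103, adjusted p = 0.0285). The groups of PDK3 overlapped, and its call was lost without either of 2 knockdown or 2 control libraries (adjusted p up to 0.145). PDK1, PDK2 and PDP1 were not called, at -0.027, -0.018 and 0.091.

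To find genes that answered differently to the 2 knockdowns, their effects were compared in 1 model over the 12 libraries. FOXRED1 itself was at 19.0, 16.1 and 17.9 CPM with shYY2 and 33.6, 32.1 and 32.6 CPM in its control (log2 fold change -0.89, SE 0.0642, adjusted p = 3.31e-09). The shYY2 effect was above the shFOXRED1 effect in 9 genes, below it in 9 and not different by this test in 16, where 26.4% of the 17146 genes tested were above and 28% below. The genes above were PDK2 (difference in log2 fold change 1.49, SE 0.135, adjusted p = 4.66e-09), PC (1.07, SE 0.113, adjusted p = 5.15e-08), GLUD1 (0.86, SE 0.0525, adjusted p = 1.08e-11), ACO1 (0.74), PDK3 (0.68), PDP1 (0.64), SUCLG2 (0.46), SDHA (0.46) and IDH2 (0.30). Those below were led by PDK1 (-1.35, SE 0.125, adjusted p = 7.21e-09), OGDH (-0.82, SE 0.0597, adjusted p = 1.63e-10) and DLAT (-0.55, SE 0.0811, adjusted p = 5.32e-06). The difference was also below 0 in DLD (-0.43), ME2 (-0.36), GOT2 (-0.31), IDH3G (-0.27), IDH3A (-0.25) and PDHA1 (-0.23).

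The calls were then set side by side. Of the 20 genes that fell with shYY2, 13 (65%) also fell with shFOXRED1, and of all genes that fell with shYY2 32.1% did. The 13 were CS, DLAT, DLD, FH, GOT1, GOT2, MDH1, MDH2, ME1, ME2, SDHB, SDHC and SUCLG1, which make up 13 of the 16 that fell with shFOXRED1. The other 3 of the 16, ACO1, GLUD1 and PDK3, rose with shYY2. None of the 11 genes that rose with shYY2 rose with shFOXRED1, and of all genes that rose with shYY2 25.3% did. In MDH1 the 2 effects were -0.48 and -0.46, with a difference of -0.019 (SE 0.0707, adjusted p = 0.844), and in FH they were -0.71 and -0.60, with a difference of -0.11 (SE 0.068, adjusted p = 0.202).

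**Figure D4:**
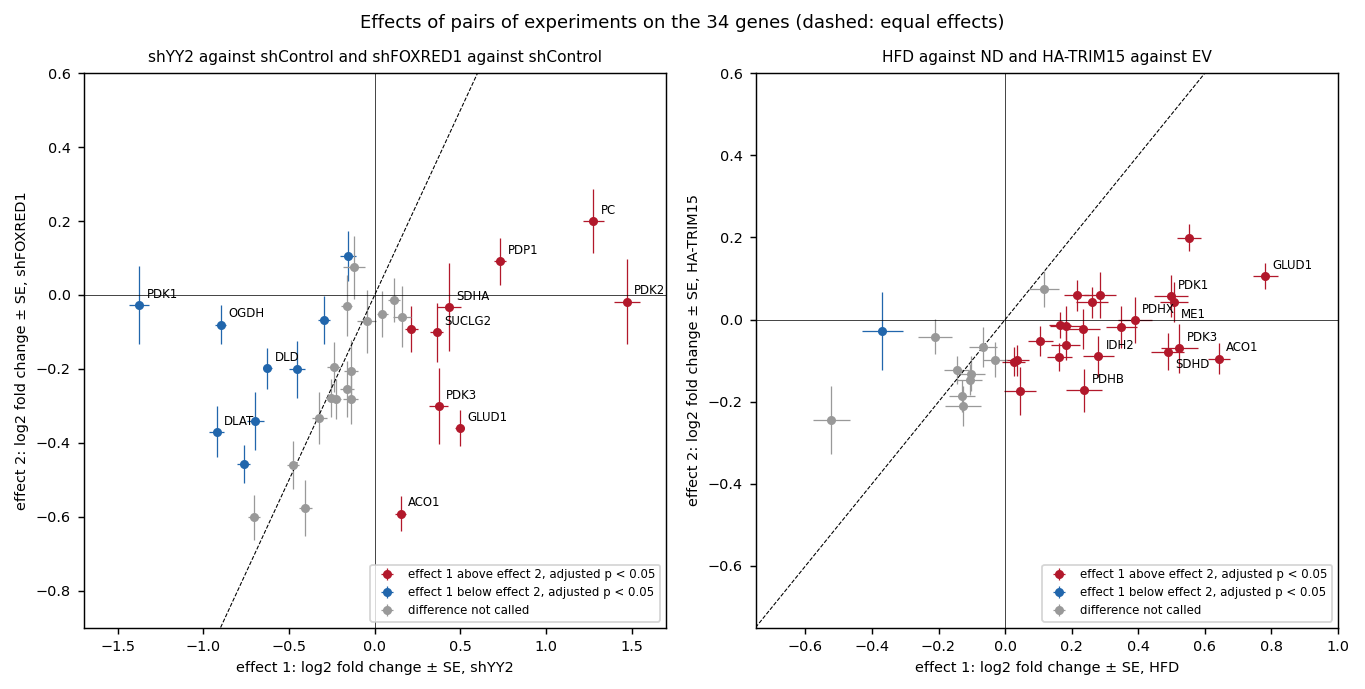
Log2 fold changes with SE of the 34 genes in shYY2 against those in shFOXRED1 (left) and in HFD against those in HA-TRIM15 (right). The dashed line marks equal effects, and red and blue points have effects that differ at an adjusted p of 0.05. On the left PDK1, OGDH and DLAT lie left of the line and PDK2, PC, GLUD1 and ACO1 right of it, and on the right 23 red points lie right of it.

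Over the 4 experiments each of the 34 genes was called at least once: 5 genes in 1 experiment, 11 in 2, 15 in 3 and 3 in all 4. Of the 14519 genes tested in all 4 experiments, 27% were called in 1, 33.2% in 2, 23.5% in 3 and 6.79% in all 4, and 9.43% in none. MDH1 and SUCLG1 fell in all 4, with log2 fold changes of -0.15, -0.12, -0.48 and -0.46 for MDH1 and of -0.13, -0.19, -0.14 and -0.28 for SUCLG1 in the order HFD, HA-TRIM15, shYY2 and shFOXRED1. These 2 are 5.88% of the 34 genes, and 0.262% of the genes tested in all 4 experiments fell in each. The changes of SUCLG1 were small in each, and its call was lost in 5 of 11 alternative analyses with HFD and in 1 with shYY2. With HA-TRIM15, MDH1 lost its call in 4 of 11 (adjusted p up to 0.0917) and GLUD1 in 6 of 11 (up to 0.147). GLUD1 rose in the first 3, by 0.78, 0.11 and 0.50, and had a log2 fold change of -0.36 with shFOXRED1. Of the genes called in 3 experiments, IDH3B and GOT1 fell in each where they were called, as did SDHC, and PDP1 rose in each, whereas CS, DLAT, DLD, FH, GOT2, ME1, ME2 and SDHB rose with HFD and fell with both knockdowns. These 8 are 23.5% of the 34 genes, and 7.02% of the genes tested in all 4 experiments had that pattern. The remaining 3 were ACO1 and PDK3, which rose with HFD and shYY2 and fell with shFOXRED1, and PC, which fell with HFD and HA-TRIM15 and rose with shYY2. Of the 21 genes that rose with HFD, 11 fell with shYY2 and 7 rose, and of all genes that rose with HFD 47.3% fell and 37.1% rose.

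Some of these enzymes exist as a cytosolic and a mitochondrial form or as alternative subunits, and the ratio of the partners within a library does not depend on how libraries are scaled. Ratios were tested with a two-sided exact permutation test over the 3 treated and 3 control libraries, whose smallest possible p is 0.1. Of 28 tests, 7 pairs in 4 experiments, 16 reached that value, and their adjusted p was 0.175. The log2 ratio of PC to PDHA1, the enzymes that send pyruvate to oxaloacetate and to acetyl-CoA, was -2.08, -2.02 and -2.08 with HFD and -1.57, -1.44 and -1.52 with ND, a difference of -0.55 (exact p = 0.1). With shYY2 it was -0.86, -0.96 and -0.95, against -2.34, -2.52 and -2.63 in the control, a difference of 1.57 in the opposite direction (exact p = 0.1). With shFOXRED1 the difference was 0.26 (exact p = 0.1). The ratio of PDK1 to PDP1 was -3.58, -3.63 and -3.76 with shYY2 and -1.48, -1.60 and -1.56 in the control, a difference of -2.11 (exact p = 0.1), and with HFD, where both genes rose, it differed by -0.067 (exact p = 0.4). With HA-TRIM15 the difference was -0.14 with separate groups (exact p = 0.1), the one ratio of that experiment to reach this value.

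The ratio of MDH1 to MDH2 was lower with HFD, by -0.17, with shYY2, by -0.23, and with shFOXRED1, by -0.18, each with separate groups and an exact p of 0.1, and with HA-TRIM15 it differed by -0.018 (exact p = 0.9). The subunit for GTP relative to that for ATP, SUCLG2 to SUCLA2, was at -0.071, -0.072 and -0.026 with HFD and 0.18, 0.30 and 0.25 with ND, a difference of -0.30, and at 0.41, 0.52 and 0.51 with shYY2 and -0.057, -0.038 and 0.036 in its control, a difference of 0.50 (exact p = 0.1 for both). GOT1 to GOT2 moved in opposite directions too, by -0.37 with HFD and by 0.44 with shYY2, again with an exact p of 0.1. ME1 to ME2 was higher with HFD (0.22) and shYY2 (0.29) and lower with shFOXRED1 (-0.23), each at the same p. IDH1 to IDH2 had separate groups only with shYY2, with a difference of -0.10.

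**Figure D5:**
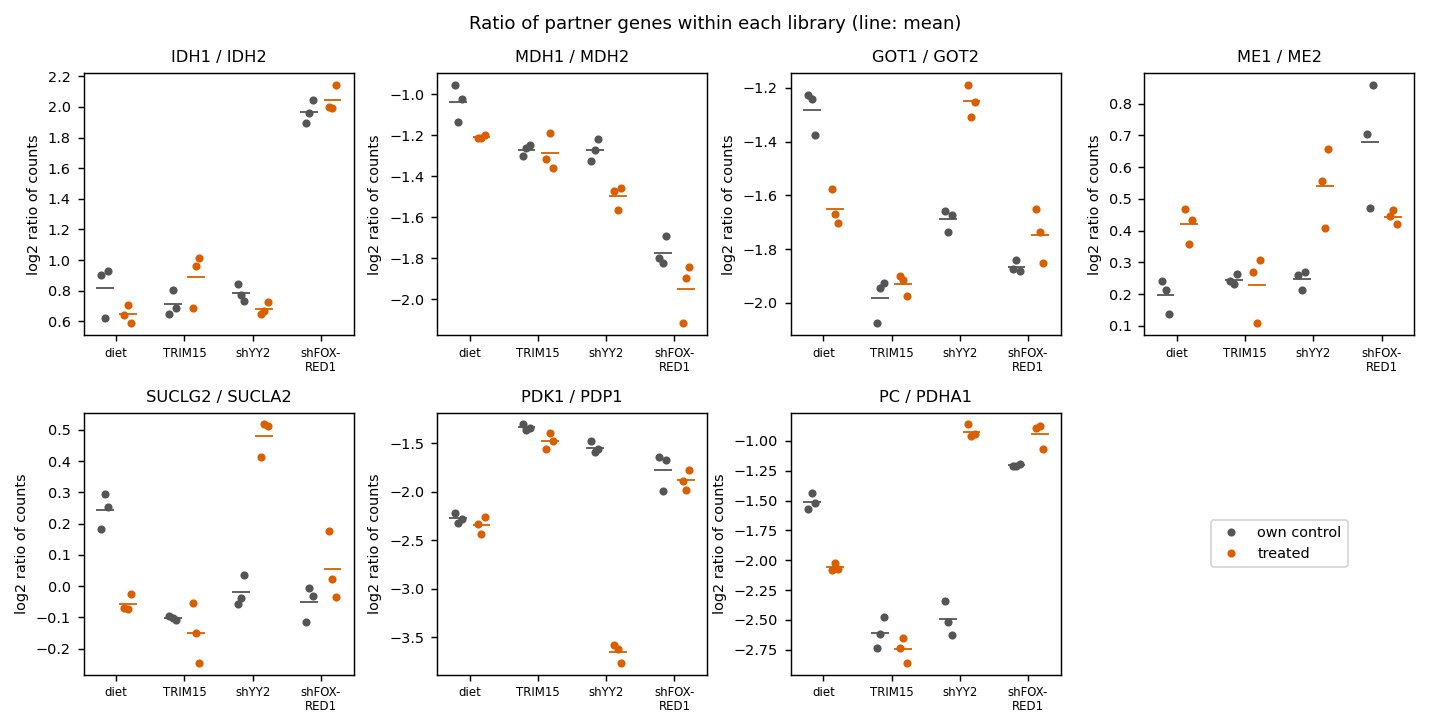
Log2 ratio of the counts of 2 partner genes in each of the 24 libraries for 7 pairs, by experiment. Grey points are control libraries, orange points treated libraries, and lines mark group means. The ratio of PC to PDHA1 goes down with HFD (-0.55) and up with shYY2 (1.57), and that of PDK1 to PDP1 drops by 2.11 with shYY2.

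Genes around the cycle that are not on the list were counted for comparison, 45 carriers, glutamine and amino acid enzymes, other cycle and pyruvate enzymes, and assembly and cofactor genes, of which 42 were tested. With HFD 7 rose and 10 fell, with HA-TRIM15 2 and 6, with shYY2 18 and 19 and with shFOXRED1 3 and 12. In shares of the 42, these are 16.7% and 23.8% with HFD, 4.76% and 14.3% with HA-TRIM15, 42.9% and 45.2% with shYY2 and 7.14% and 28.6% with shFOXRED1, to be read against the shares of all genes given above. With HFD the largest rise was that of ALDH5A1, which makes succinate from succinic semialdehyde (log2 fold change 0.79, SE 0.0743, adjusted p = 1.95e-07), followed by ACLY, which splits citrate in the cytosol (log2 fold change 0.46, SE 0.0348, adjusted p = 1.73e-08). With shYY2 the kinase PDK4, another member of the PDK family, rose from 41.7, 40.8 and 41.7 to 311, 319 and 314 CPM (log2 fold change 2.93, SE 0.0328, adjusted p = 6.83e-18), a larger rise than that of any of the 34 genes. PDK4 also rose with HA-TRIM15 (log2 fold change 0.64, adjusted p = 2.38e-05) and, by less, with HFD (log2 fold change 0.10, SE 0.0397, adjusted p = 0.0462). Of the 10 carriers, 7 (70%) fell with shYY2, where 38.1% of all genes did, among them the aspartate-glutamate carrier SLC25A13 (log2 fold change -1.22, SE 0.0341, adjusted p = 3.93e-14). With shFOXRED1 the largest changes were the rise of the alanine aminotransferase GPT (log2 fold change 1.25, SE 0.215, adjusted p = 0.000195) and the falls of the glutaminase GLS2 (log2 fold change -1.07, SE 0.374, adjusted p = 0.0328) and of the lactate and pyruvate transporter SLC16A1 (log2 fold change -0.96, SE 0.0657, adjusted p = 6.9e-09). GLS2 rests on few counts, 11, 8 and 13 with shFOXRED1 against 26, 19 and 19 in the control. It was also called with HA-TRIM15 (log2 fold change -1.21, SE 0.405, adjusted p = 0.0446), on 7, 2 and 4 counts against 11, 12 and 18.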

How the data were processed

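RNA of OE33 xenografts and cultured OE33 cells was poly-A selected and sequenced on a DNBSEQ-T7. The authors deposited raw read counts per Ensembl gene in 1 table for each experiment. The submitters' processing notes name the builds hg38 and mm10 with no role, and the aligner, counter and annotation are not given in the sources used here, nor is the handling of mouse reads in the xenografts. Per the labels the library kit was strand-specific, whereas the study's methods name a kit without that property, and whether counting used the strand was not settled, so reads from antisense and overlapping genes may not be told apart. The 24 libraries were grouped by their titles and held 14299807 to 45994561 counts, which limits the precision of genes with few counts. Of 61860 identifiers, 61757 (99.8%) had a symbol.

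Each experiment was fitted separately with edgeR 4.0.16 in R 4.3.3 on the counts, with filterByExpr (minimum count 10, minimum total 15), TMM scaling and the quasi-likelihood test, and p-values were adjusted over all genes tested by the Benjamini-Hochberg method with a threshold of 0.05. SEs were obtained from the log2 fold change and the F statistic, as the former over the root of the latter. Differences between effects were tested as an interaction in 1 model over 12 libraries, scaled together by TMM. The procedure was tested on simulated data. False calls there passed a share of 0.05 for HFD, HA-TRIM15 and the difference between the knockdown effects, and many 1.2-fold changes were missed. Alternatives were DESeq2 size factors, no filter, at least 10 counts in every library, DESeq2 1.42.0, the replicate number as a block, a log2 fold change of at least 0.26 in size and leaving out each library.

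Of the 34 genes, up to 6 called per direction and experiment, by size of the fold change, and those called in 3 or 4 experiments are given with every library. Means there are of treated and control libraries in that order, ± SD (n = 3). From the other pathway genes, named ones are among the 3 largest changes in a direction. The members and lists were chosen with earlier results of these data known. Replicate numbers were checked by the correlation of same-numbered libraries' deviations from their group means. Over genes of at least 10 CPM it was 0.214, 0.127 and 0.414 in the FOXRED1 experiment, above the limit of 0.1 in each pair, and over genes of at least 1 CPM it was 0.0535, 0.0374 and 0.153. In the other experiments at least 1 pair was under 0.1 at both levels, so the numbers were taken to pair libraries, with this reserve, in the FOXRED1 experiment alone.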

Additional observations from a re-analysis of the deposited data

How the results depend on the processing

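Of the called genes, 23 of 27 with HFD, 3 of 10 with HA-TRIM15, 27 of 31 with shYY2 and 12 of 16 with shFOXRED1 kept their call in all 11 alternatives that give a value per gene. Asking for a log2 fold change of at least 0.26 in size (about 1.2-fold) gave 12 genes that rose and 2 that fell with HFD, 0 and 0 with HA-TRIM15, 7 and 12 with shYY2 and 0 and 13 with shFOXRED1. The matching share of all genes was not computed. The median size without sign over all genes was 0.21, 0.13, 0.47 and 0.24 in this order. With HA-TRIM15, 1 gene rose with no filter on counts, 5 fell in DESeq2's Wald test, and leaving out single libraries gave 1 to 5 that rose and 2 to 12 that fell. With shFOXRED1, 1 rose with the replicate block, and leaving out single libraries gave 0 to 1 that rose and 12 to 18 that fell. For the diet effect below the HA-TRIM15 effect, DESeq2 size factors gave 2 genes, its Wald test 0 and leaving out single libraries 0 to 3. The number of calls over all genes also moved when HA-TRIM15, EV, shFOXRED1 or shControl libraries were left out. The cause of these changes was not tested. With the replicate number as a block, 21 genes rose and 8 fell with HFD, 2 and 9 with HA-TRIM15 and 11 and 20 with shYY2.

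Changes of direction were found in genes that were not called, and when single libraries were left out. With HA-TRIM15 the log2 fold changes then lay between -0.031 and 0.0011 for CS, -0.059 and 0.018 for IDH3A, -0.062 and 0.019 for SUCLA2, -0.073 and 0.036 for SDHB, -0.059 and 0.043 for PDHX, -0.097 and 0.046 for PDK2 and between -0.011 and 0.095 for ME1, and with shFOXRED1 between -0.064 and 0.034 for IDH1, -0.11 and 0.070 for IDH3B, -0.12 and 0.10 for SDHA, -0.12 and 0.038 for SDHD, -0.12 and 0.011 for PDHX, -0.12 and 0.033 for PDK1 and between -0.10 and 0.034 for PDK2. The shift of the median of all genes under another scaling was below 0.1 in each experiment. It was not computed for the models over 12 libraries. The lowest counts in a library were those of PDK2 (150), PC (210) and SDHA (236).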
